A study of Mus musculus with 6 samples.

Results

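The proximal and the distal part of mouse forelimb buds exposed to retinoic acid (RA) were compared, using the 2 arrays, of 6 in the series, that were made from RA exposed embryos. The members were chosen by their labels and not by any measured value. Both arrays came from wild type CD1 embryos whose mothers received all-trans RA, 100 mg/kg by oral gavage, at E10.25, and the buds were collected at E10.5. Of these arrays 1 measured the proximal part and 1 the distal part. Because genotype, dose and time were shared, only the part of the bud differs between these arrays by label. For orientation, the same difference was taken in the dKO pair (Prx1-Cre; Ring1A-/-; Ring1Bfl/fl, where Prx1-Cre acts in the limb mesenchyme) and in the control pair (genotype label Ring1A-/-, described as WT), both CD1, at E10.5 and without RA. The RA pair and the control pair therefore differ in the Ring1A genotype label as well as in RA, and the effects of these cannot be told apart. Each part of each condition had 1 array, so no difference has a replicate check and none has a p-value. How many buds each array stands for is not stated in the sources used here.

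Retinoic acid is a vitamin A derivative that binds nuclear receptors of the RAR and RXR families on DNA and activates genes carrying RA response elements. In the early limb bud it comes from the flank of the embryo and is associated with proximal identity, marked by the homeobox genes Meis1 and Meis2. The distal tip is kept by fibroblast growth factors (FGFs) from the apical ectodermal ridge, a strip of epithelium at the edge of the bud, and there the CYP26 enzymes break RA down. Sonic hedgehog (SHH), from the posterior margin, sustains the ridge through the BMP antagonist Gremlin 1.

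Because the RA receptors act through known elements, the upstream sequences of 2 target genes are shown before their levels. They are the 250 bases before the annotated start, from RefSeq on GRCm38.p6, written 5′ to 3′ on the strand of the gene. Capitals mark the DR5 type of RA response element, 2 copies of a 6-base half-site separated by 5 bases. The first window is chr14:16575477-16575726 on the minus strand, in front of Rarb, which encodes RA receptor beta. The second is chr19:37697558-37697807 on the plus strand, in front of Cyp26a1, which encodes an enzyme that breaks RA down.
Rarb: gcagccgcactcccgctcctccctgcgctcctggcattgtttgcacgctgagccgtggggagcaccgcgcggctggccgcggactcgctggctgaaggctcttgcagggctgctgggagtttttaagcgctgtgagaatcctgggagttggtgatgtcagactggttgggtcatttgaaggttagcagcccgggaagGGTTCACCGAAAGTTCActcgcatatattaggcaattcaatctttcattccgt
Cyp26a1: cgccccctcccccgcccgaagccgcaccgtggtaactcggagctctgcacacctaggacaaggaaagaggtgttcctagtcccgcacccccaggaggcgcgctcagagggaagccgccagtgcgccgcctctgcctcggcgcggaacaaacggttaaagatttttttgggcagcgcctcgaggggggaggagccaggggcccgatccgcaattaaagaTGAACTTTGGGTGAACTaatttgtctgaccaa
The Rarb element is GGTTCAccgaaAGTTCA, on the strand of the gene, and ends 36 bases before the start. The Cyp26a1 element reads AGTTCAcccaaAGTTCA on the opposite strand and ends 15 bases before the start. The DR5 element was searched on both strands from 250 bases before to 50 after each start, and 32 of 32851 such windows held it (0.0974%). Of 9340 measured genes with a window, 4 held it, namely Rarb, Cyp26a1, Blvrb and Hbb-y, and none of the 4 differed 2-fold between the parts. The element was in 0 of the 391 genes with a window that were 2-fold higher proximally and in 0 of the 553 that were lower. A match is a description of the letters in this window and nothing more.

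Signals are linear intensities, and a signal under the median of its array (the floor) was set to it. The floor was 63.0 on the RA proximal array and 68.2 on the RA distal array. A gene counts as measured where at least 1 of the 2 arrays is above its floor, and differences are log2 of proximal over distal. Where 1 array is at its floor the difference is only a bound, written "at least" or "a bound". The forelimb label was checked on its markers: the forelimb gene Tbx5 had signals of 847 proximally and 1094 distally, well above the floors. The hindlimb gene Tbx4 had 77.8 and 93.3, close to the floors, and the hindlimb gene Pitx1 76.2 and 5.55, the second of them under its floor. Prrx1, a factor of limb mesenchyme, had 5750 and 5927. The proximal RA array had the highest 3'/5' ratios, a measure of RNA integrity and labelling. Its GAPDH ratio was 1.60, against 1.39 on the RA distal array and 1.28 to 1.39 on the other 4. Its actin ratio was 1.95, against 1.64 on the RA distal array and 1.52 to 1.72 on the other 4. Across 12176 genes, Pearson's r of proximal with distal log2 signal was 0.951 in the RA pair, 0.986 in the dKO pair and 0.985 in the control pair (genes are not independent replicates).

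Of 11504 measured genes in the RA pair, 510 (4.43%) were 2-fold or more higher proximally and 710 (6.17%) lower, together 10.6%. The dKO pair had 59 (0.506%) higher and 84 (0.721%) lower, and the control pair 155 (1.36%) and 159 (1.4%). The spread of the log2 difference across genes was 0.66 (SD) in the RA pair, 0.32 in the dKO pair and 0.37 in the control pair. The direction of the split in the RA pair depends on scaling: 41.8% of the 2-fold genes were higher proximally, but 57.7% when each array was divided by its median and 52.2% after quantile normalization. The median over all genes was 0.06, and it was 0.17 and 0.10 under those scalings. In most of these genes the proximal RA array was the highest or the lowest when set against the arrays without RA. Among the 710 lower genes it was below all 4 arrays without RA in 639 (90%), and among the 510 higher genes it was above all 4 in 357 (70%). Over all measured genes these shares were 36.4% and 37.1%. The distal RA array was below all 4 in 266 of the higher genes (52.2%, against 31.3% of all measured genes). It was above all 4 in 273 of the lower genes (38.5%, against 24.4%). The genes were chosen on the difference between the RA arrays, which itself raises such shares. How far the higher 3'/5' ratios of the proximal RA array enter the counts was not tested.

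**Figure D1:**
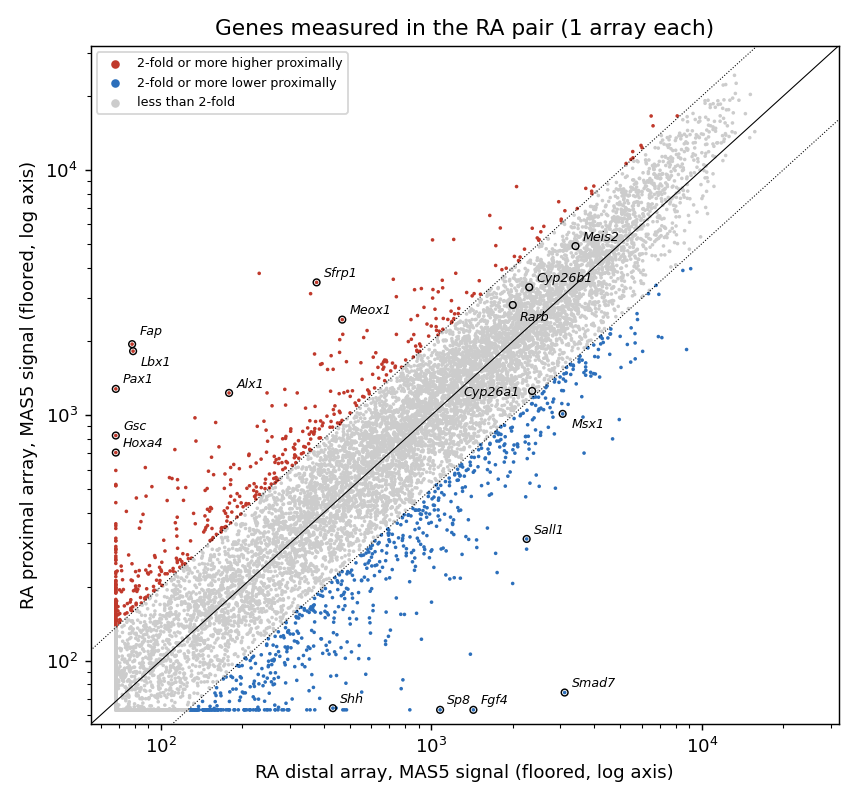
Signal of each measured gene on the proximal RA array (vertical axis, log scale) against the distal RA array (horizontal axis, log scale), with signals under the floor drawn at the floor. Genes such as Fap and Lbx1 lie far above the diagonal and Smad7, Fgf4 and Sp8 far below it, and 510 and 710 genes lie beyond 2-fold on either side.

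The genes with the largest proximal excess included patterning genes of the anterior bud, a muscle precursor gene and Hox genes. Fap, which encodes a membrane protease of mesenchymal cells, had a signal of 1948 proximally and 78.3 distally, a log2 difference of 4.64 (24.9-fold). Lbx1, a homeobox gene that marks migrating precursors of limb muscle, had 1824 and 79.0 (4.53), and at least 0.88 on its other probe set. Pax1, a paired box gene of the shoulder girdle and sclerotome, had 1280 and 2.59, a log2 difference of at least 4.23 (at least 18.8-fold), and at least 0.37 on its other, dimmer probe set. These 3 genes were also higher proximally in the dKO pair, by 2.61, 2.24 and 1.27, and in the control pair, by 3.28, 2.58 and at least 3.31. Gsc, the homeobox gene Goosecoid, had 826 and 35.0, at least 3.60 against at least 2.66 in the control pair. Sfrp1, which encodes a secreted WNT antagonist, had 3479 and 377 (3.21), and its 4 other measured probe sets differed by at least 1.09 to 3.38, of which the 3.38 alone is not a bound. Alx1, a homeobox gene of anterior mesenchyme, had 1232 and 179 (2.79). Hoxb5os, an antisense transcript of the HoxB cluster, had 3786 and 231 (4.03), and the array design does not say whether its probes separate it from the genes around it. The other 8 of the 15 highest genes were Hoxa4, Sned1, Ephx1, Ebf2, Crispld2, Dock10, Mn1 and Crnde, with log2 differences of 2.80 to 3.37, of which those of Hoxa4, Ephx1, Ebf2, Crispld2 and Dock10 are bounds. With the floor at the 75th percentile, 8 of the 15 shrank under 2-fold: Dock10 and Crispld2 to 0.02, Ebf2 to 0.04, Ephx1 to 0.23, Crnde to 0.27, Hoxa4 to 0.47, Gsc to 0.70 and Mn1 to 0.94. Fap, Lbx1 and Pax1 stayed above it.

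Genes with the largest distal excess included ridge factors and zinc finger genes of the distal mesenchyme. Fgf4, an FGF of the ridge, had 39.1 proximally and 1431 distally, a log2 difference of -4.51 (a bound), and its 2 other probe sets gave bounds of -3.49 and -3.38. Sp8, a zinc finger factor of the ridge ectoderm, had 58.7 and 1078 (-4.10, a bound), against -1.36 in the control pair, where it had 604 proximally and 1550 distally. The proximal RA signal of Sp8 was the lowest of the 6 arrays, and the distal RA signal lay within the range of the other 4. Sall3, a spalt-like zinc finger gene, had 44.8 and 833 (-3.73, a bound), and a bound of -1.04 on its other probe set. Cbln1, which encodes a secreted C1q family protein, had 106 and 1395 (-3.72), with bounds of -3.10 and -2.65 on its other probe sets. Zic5, a zinc finger gene, had 206 and 1999 (-3.28, and -3.17 on another probe set) and Edar, the ectodysplasin receptor of epithelium, 47.7 and 478 (-2.92, a bound). The largest value of all belongs to Smad7, an inhibitor of BMP and TGF-beta signalling, with 74.1 proximally and 3111 distally (-5.39). It rests on 1 probe set of a type that can cross-hybridise, and the other Smad7 probe set had 516 and 701 (-0.44). The remaining 8 of the 15 lowest genes, with differences of -2.89 to -3.33, were Svopl, Ppp2r2c, Amigo1, Apod, Rcsd1, Tent5a, Nkx1-2 and Mgat2, where those of Apod and Nkx1-2 are bounds. Svopl too was read from a probe set of the type that can cross-hybridise. Amigo1 had -2.98, but -0.80, -1.11 and -1.53 on its other probe sets. With the floor at the 75th percentile, Mgat2 shrank to -0.21, Svopl to -0.70, Ppp2r2c to -0.72, Sall3 to -0.81 and Tent5a to -0.95, and Apod, Edar and Nkx1-2 were no longer measured.

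Many 2-fold genes are read by more than 1 probe set, and in the RA pair these often disagreed in size. Of 172 genes that were 2-fold higher proximally and had another measured probe set, 45 (26.2%) had a second one 2-fold higher, and in 29 (16.9%) no other probe set had the same sign. Of the 368 such genes that were lower, 108 (29.3%) had a second one 2-fold lower and in 73 (19.8%) none shared the sign. Differences of dim probe sets can be bounds, which understates their size. In the control pair 27 of 45 higher genes (60%) and 19 of 38 lower genes (50%) had a second probe set 2-fold the same way. The dKO pair had 5 of 15 higher genes (33.3%) and 6 of 27 lower genes (22.2%), so on this measure the RA pair did not stand apart. No other probe set shared the sign in 1 (6.67%) and 2 (7.41%) of these dKO genes. The probe sets marked as prone to cross-hybridisation (suffix x_at) were 2-fold lower proximally in 63 of 524 genes, against 647 of 10980 other genes. Sdhd and Uqcc2, mitochondrial respiratory chain genes named here after their values were seen, are examples. Sdhd had 801 proximally and 4678 distally (-2.55) on its chosen probe set and 0.43 on another, and Uqcc2 701 and 3670 (-2.39) against 0.72.

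**Figure D2:**
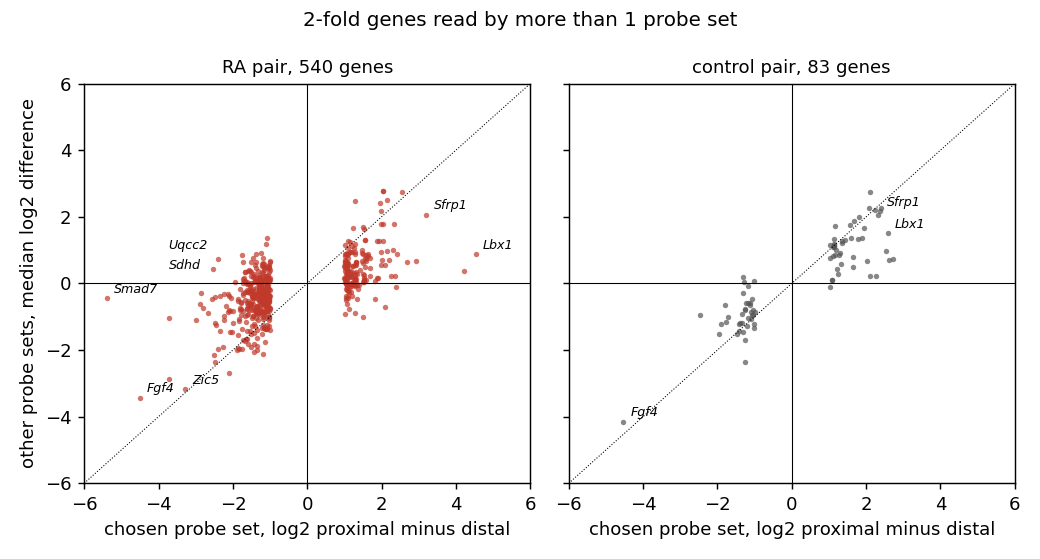
Median log2 difference, proximal over distal, of the other probe sets of a gene (vertical axis) against that of the chosen probe set (horizontal axis). The left panel shows genes 2-fold in the RA pair and the right panel genes 2-fold in the control pair, each with the values of that pair. Only genes with another measured probe set are drawn. In the RA pair Sfrp1 and Fgf4 stay beyond 2-fold on the other probe sets, whereas Smad7 shrinks to -0.44 and Sdhd and Uqcc2 change sign.

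Several RA response genes had high signals in both parts of the RA exposed bud and differed by less than 2-fold between them. Of 18 measured RA response genes 5 were 2-fold higher proximally and 1 lower, with a median of 0.47, where 4.43% of all measured genes were higher, 6.17% lower and the median was 0.06. These background values hold for every list below. The 5 higher RA response genes were Nr2f1, Hoxa4, Hoxb1, Hoxb4 and Hoxb5, and these Hox genes are counted again in the Hox clusters below. With the floor at the 75th percentile 2 RA response genes were higher. In the control pair 7 of 18 measured RA response genes were higher and 1 lower (median 0.53). Rarb had 2814 proximally and 2000 distally (log2 0.49), against 617 and 117 in the control pair (2.40). Its proximal excess was smaller in the RA pair, and both RA signals were above those of the other 4 arrays. Cyp26a1 had 1256 proximally and 2358 distally (-0.91), and 29.3 to 73.3 on the other 4 arrays. Cyp26b1, the CYP26 enzyme of the distal limb mesenchyme, had 3323 and 2301 (0.53), against 302 and 780 in the control pair (-1.37), so the order of the parts was opposite. Dhrs3, a retinal reductase that lowers RA formation, had 5251 and 4261 (0.30), and the intracellular RA binding protein gene Crabp2 had 15814 and 9831 (0.69). Of the 8 measured genes of RA synthesis, transport and breakdown 0 were 2-fold either way, and the RA synthesising enzyme genes Aldh1a1, Aldh1a2 and Aldh1a3 were at the floor on both arrays.

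Some genes tied to RA differed 2-fold. Rarg, the gamma receptor, had 1996 proximally and 822 distally (1.28), against 969 and 1014 in the control pair, and its other probe set in the RA pair differed by 0.17. Nr2f1, an orphan nuclear receptor of the COUP-TF family, had 1653 and 486 (1.77) and was higher proximally in the control pair too (2.40). Cdx1, a caudal homeobox gene that responds to RA in the posterior embryo, had 110 and 412 (-1.91). Ncoa2, a receptor coactivator, had 886 and 1965 (-1.15), but -0.53 as the median over its probe sets. Of 11 measured receptors and cofactors, 2 were higher and 1 lower (median 0.27), Rarb and the Nr2f genes being on both lists.

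Meis1 and Meis2 differed more than 2-fold between the parts of the control bud and less than 2-fold between those of the RA exposed bud. Meis2 had 4890 proximally and 3411 distally in the RA pair (0.52), against 2941 and 1094 in the control pair (1.43). Its 3 other probe sets differed by -0.12, -0.64 and -0.47 in the RA pair and by 1.38, 1.23 and 1.29 in the control pair, so the direction of Meis2 in the RA pair depends on the probe set, and its median over probe sets was -0.29. Meis1 had 375 and 397 in the RA pair (-0.08), against 614 and 202 in the control pair (1.61), and its other probe set differed by 0.58 against 1.38. Tbx18, a T-box gene of the proximal mesenchyme, had 265 and 283 (-0.09), against 1678 and 660 in the control pair (1.35). The sign of Meis1 turns positive (0.04 and 0.05) under median scaling and quantile normalization.

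Iroquois genes and Meis3 were 2-fold higher proximally in the RA pair. Irx3, an Iroquois homeobox gene, had 1804 proximally and 458 distally in the RA pair (1.98), against 2018 and 160 in the control pair (3.65). Irx5 had 203 and 35.4, at least 1.57 against at least 2.08, and Meis3 had 256 and 13.4, at least 1.91 against at least 0.86. Of 12 measured proximal limb genes, 3 were 2-fold higher and 0 lower in the RA pair (median 0.20), and 6 and 0 in the control pair (median 1.10), and in the RA pair 1 was higher with the floor at the 75th percentile. Shox2, the short stature factor of the upper arm skeleton, differed by 0.20 and Hoxd9 by 0.05. The anterior list, which shares Irx3 and Irx5 with the proximal list, had 5 of 7 measured genes higher and 0 lower (median 1.57). In the control pair 4 of 7 anterior genes were higher and 0 lower (median 1.55). Besides Pax1, Alx1, Irx3 and Irx5, the higher anterior genes of the RA pair held Tbx2, a T-box repressor, with 1224 and 456 (1.42), against 219 and 139 in the control pair (0.66). Gli3, the transcription factor that restrains the posterior programme, differed by -0.39.

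**Figure D3:**
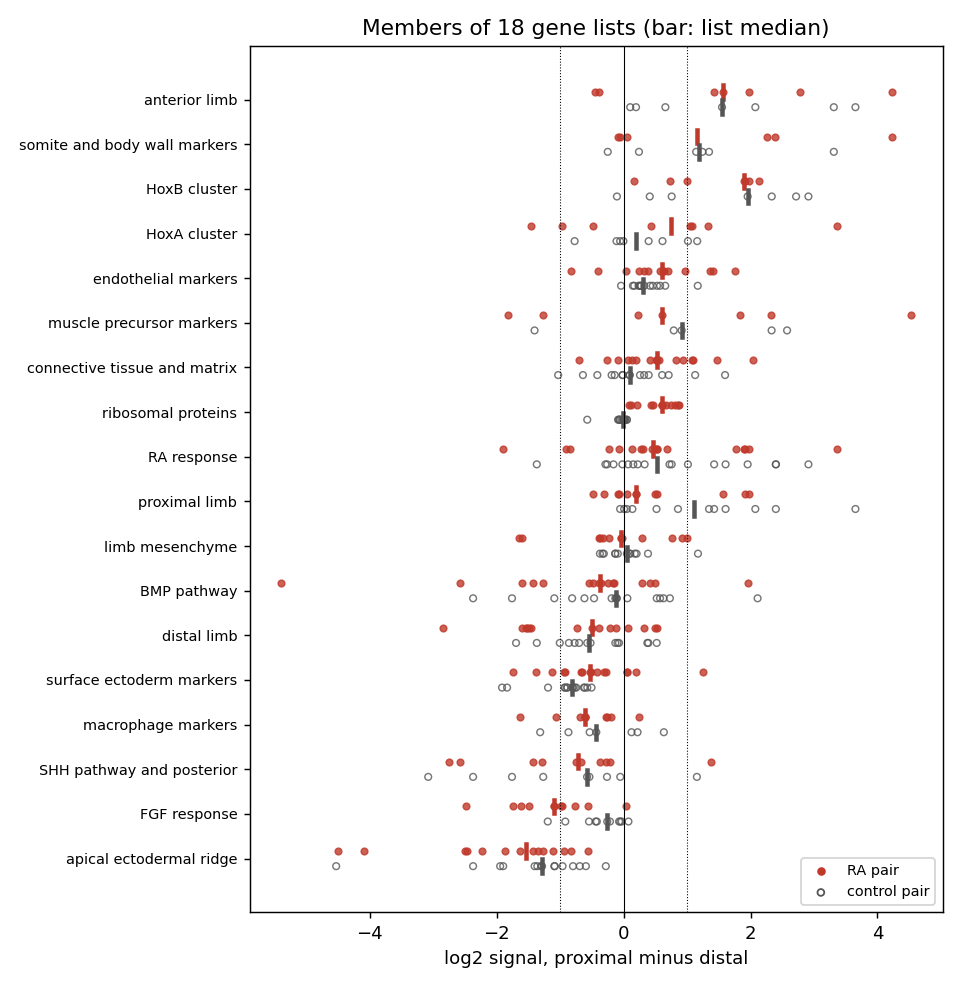
Log2 difference, proximal over distal, of the measured members of 18 gene lists in the RA pair and in the control pair, each point 1 gene and the bar the median of the list. Ridge genes lie mostly below 0 in both pairs (medians -1.53 and -1.28), FGF response genes lie lower in the RA pair (-1.09 and -0.26), and proximal limb genes lie nearer 0 in the RA pair (0.20 and 1.10).

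The Hox clusters, whose genes are ordered along the chromosome by the position they pattern, did not share a single pattern. In the HoxA cluster 4 of 8 measured genes were 2-fold higher proximally and 1 lower (median 0.74, but -0.20 when the floor was set at the 75th percentile and 6 genes remained). Hoxa4 had 704 proximally and 67.9 distally, at least 3.37 against 1.01 in the control pair. Hoxa5 had 1400 and 555 (1.34), although its other probe set differed by -0.48, and Hoxa2 and Hoxa7 differed by 1.08 and 1.05. At the 5' end of the cluster the signs were negative, with Hoxa9 at -0.48, Hoxa10 at -0.98 and Hoxa11 at -1.46. Hoxa11, a gene of the forearm region, had 628 and 1726, and Hoxa13, a gene of the hand plate, was at the floor on both arrays.

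Of 7 measured HoxB genes 4 were higher proximally and 0 lower (median 1.91; control pair 4 and 0, median 1.95). With the floor at the 75th percentile 4 HoxB genes remained measured, 1 of them 2-fold higher (median 0.81), and Hoxb6 shrank to 0.41. Hoxb4 had 945 and 241 (1.97, and at least 0.56 on another probe set), Hoxb5 3248 and 867 (1.91) and Hoxb6 674 and 154 (2.13). Hoxb1 had 257 and 50.1, at least 1.91, and Hoxb2, at 0.995, lay just under the 2-fold line. Hoxb3 had 2315 and 1402 in the RA pair (0.72), against 1179 and 179 in the control pair (2.72), and the distal RA signal was above the distal control signal.

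The HoxC cluster had 1 of 5 measured genes higher and 1 lower (median 0.71). Hoxc6 had 170 and 46.6 (at least 1.32, and at least 1.49 and -0.24 on other probe sets) and Hoxc8 410 and 873 (-1.09), while Hoxc4 differed by 0.71 in the RA pair and 2.13 in the control pair. Hoxc5 differed by 0.98, and its other probe sets by at least 1.65 and by 2.31. In the HoxD cluster 1 of 7 measured genes was higher and 2 lower (median -0.74). Hoxd3 had 374 and 149 (1.33), and the distal genes Hoxd11 and Hoxd13 had 331 and 933 (-1.49) and 700 and 2037 (-1.54). Hoxd12 was near its floor on both arrays (63.5 and 73.9).

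**Figure D4:**
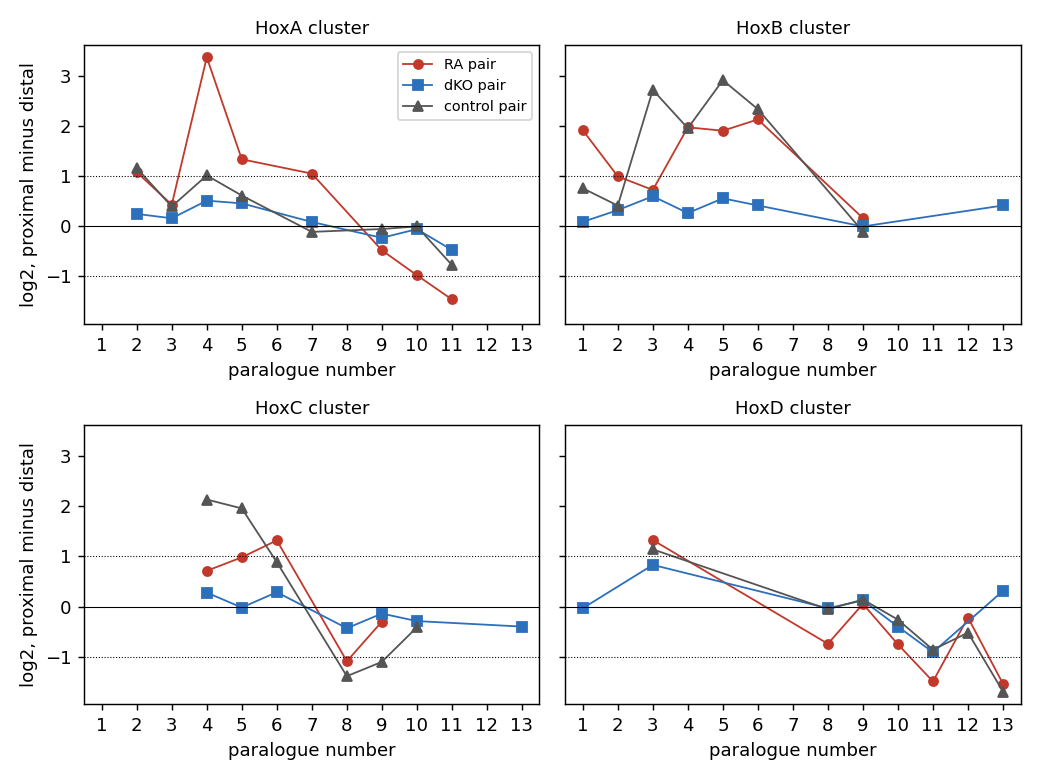
Log2 difference, proximal over distal, of each measured gene of the 4 Hox clusters by paralogue number, in the RA, dKO and control pairs. Values are positive for the low paralogues of the HoxA and HoxB clusters and negative for Hoxa9 to Hoxa11 and for Hoxd11 and Hoxd13 in the RA pair.

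Ridge genes were lower proximally as a group: 11 of 14 measured members were 2-fold lower and 0 higher (median -1.53), and 10 lower and 0 higher in the control pair (median -1.28). The count was 4 with the floor at the 75th percentile. Fgf8, the FGF found along the whole ridge, had 6.87 proximally and 137 distally (-1.12, a bound). Dlx2, a distal-less homeobox gene of the ridge, had 156 and 882 (-2.50), and Sp6, a relative of Sp8, 75.3 and 353 (-2.23). Cd44, a hyaluronan receptor, had 70.2 and 387 (-2.46), with a bound of -1.26 on its other probe set. Wnt5a, a WNT ligand of the distal mesenchyme and ridge, had 375 and 1371 (-1.87), and its 3 other probe sets differed by -1.53 to -2.02. The list sums to a signal of 3196 proximally and 11336 distally in the RA pair, against 5942 and 14875 in the control pair.

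Feedback inhibitors and targets of FGF signalling were lower proximally in the RA exposed bud. Of 11 measured members 6 were 2-fold lower and 0 higher (median -1.09), against 1 and 0 in the control pair (median -0.26), and the difference between the pairs was not tested. Spry4, a feedback inhibitor of FGF signalling, had 218 and 1216 (-2.48), with -4.01 and a bound of -0.71 on its other probe sets, against 710 and 1342 in the control pair (-0.92). Spry2 had 341 and 1144 (-1.75) and Spred2 275 and 845 (-1.62). Etv5, an ETS factor induced by FGF, had 586 and 1651 (-1.49), against 1804 and 2156 in the control pair (-0.26). Dusp6, the phosphatase that limits FGF signalling through ERK, had 1649 and 3518 (-1.09) and Spry1 149 and 318 (-1.09), and both lie at or just under 2-fold when arrays are divided by their median (-0.98 and -0.97). Summed signal over the list was 9129 proximally and 19031 distally, against 15800 and 19063 in the control pair, and the proximal RA sum was the lowest of the 6 arrays.

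Distal patterning genes had 6 of 15 measured members 2-fold lower and 0 higher (median -0.50). The control pair had 3 of 14 lower and 0 higher, with a similar median (-0.55). Sall1, a relative of Sall3, had 313 and 2252 (-2.85, and a bound of -0.30 on its other, dimmer probe set), against 1616 and 3244 in the control pair (-1.01). Lhx9, a LIM homeobox gene of distal mesenchyme, had 982 and 2816 (-1.52, and -1.91, -0.12 and -2.60 on other probe sets), against 4192 and 3234 in the control pair (0.37). Msx1, a homeobox gene that responds to BMP, had 1013 and 3058 (-1.59), with -1.81 on its other probe set and -0.13 in the control pair. The others of the 6 in the RA pair were Hoxa11, Hoxd11 and Hoxd13, counted above. Msx2 differed by 0.49 and Jag1 by -0.38.

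The SHH pathway list had 4 of 10 measured genes lower and 1 higher (median -0.71), and the same counts in the control pair (median -0.58), but 1 lower with the floor at the 75th percentile. Shh had 64.0 proximally and 433 distally (-2.76), against 130 and 1099 in the control pair (-3.08). Grem1, the BMP antagonist between SHH and the ridge, had 80.9 and 483 (-2.58), against 357 and 1208 (-1.76). Hand2, a posterior basic helix-loop-helix factor, had 1164 and 2834 (-1.28), although its other probe set differed by 0.11. The SHH targets Gli1 and Ptch1 differed by -0.22 and -0.27, against -1.27 and -0.54 in the control pair. Osr1, an odd-skipped factor, had 178 and 48.5, at least 1.38.

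More BMP and WNT genes were 2-fold lower than higher proximally, apart from Sfrp1 and a few others. With the floor at the 75th percentile, 3 BMP and 2 WNT genes were lower. Of 16 measured BMP genes 5 were lower and 1 higher (median -0.37), Bmp2 at -1.43, Bmp4 at -1.27 and the receptor gene Bmpr1b at least 1.97. The other lower ones were Grem1, Msx1 and Smad7, and the other Smad7 probe set differed by -0.44. Bmp2, Bmp4, Grem1 and Msx1 are also on the ridge, SHH or distal lists above. In the control pair 3 BMP genes were lower and 1 higher. Of 19 measured WNT genes 5 were lower and 2 higher (median -0.15), and in the control pair 2 were lower and 2 higher. Wnt7a, the dorsal ectodermal ligand, had 130 and 435 (-1.74), Frzb, a secreted WNT antagonist, 564 and 1918 (-1.77), and Wif1 114 and 288 (-1.34). Rspo3, a WNT enhancer, had 436 and 211 (1.04), against 792 and 793 in the control pair. Among 16 measured Eph receptors and ephrins, cell contact guidance proteins, 5 were higher and 1 lower (median 0.13), and 0 were higher with the floor at the 75th percentile. Epha7 had 557 and 108 (2.37, and 0.24 on another probe set) and Epha4 1190 and 3600 (-1.60).

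Some collagen genes were 2-fold higher proximally, and the cartilage genes that differed went both ways. Of 16 measured connective tissue and matrix genes 4 were higher and 0 lower (median 0.52), and 2 were higher with the floor at the 75th percentile. Col1a1, the alpha chain of type I collagen, had 1622 and 395 (2.04), with 2.76 on its other probe set, and Col5a1 804 and 289 (1.48). Postn had 145 and 16.2 (at least 1.09) and Col3a1 3973 and 1892 (1.07, and 0.40 on another probe set). Among 9 measured chondrogenic genes 1 was higher and 1 lower (median 0.21, but -0.09 as the median over probe sets): Col2a1, the cartilage collagen, had 3002 and 1011 (1.57), against 947 and 1296 in the control pair (-0.45), and Hapln1 835 and 1809 (-1.12). Notch1 had 2132 and 862 (1.31), and 2 of 12 measured Notch genes were higher and 0 lower.

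Growth and stress genes differed less. Of 15 proliferation genes and of 16 measured immediate early and stress genes 0 were 2-fold either way (medians 0.24 and 0.03). All 13 ribosomal protein genes were above 0 (median 0.60, control pair -0.01) with 0 at 2-fold, but the median was 0.06 after quantile normalization and 0.15 after a loess fit of the pair, and Rplp0 had 16981 proximally and 9277 distally. In the 10% of genes with the highest signal the RA pair had a median of 0.26, against 0.06 in the dKO pair and -0.01 in the control pair. The loess fit and quantile normalization, which both remove differences tied to brightness, thus took most of the ribosomal median away, and they took Crabp2 to 0.24 and 0.18.

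Other tissues in the dissected parts were read from marker lists, and in bulk tissue fewer cells of a type cannot be told apart from less RNA per cell. Somite and body wall markers had 3 of 6 measured members higher and 0 lower (median 1.16), and summed to 7500 proximally and 2963 distally, against 4646 and 2670 in the control pair. The control pair had 4 of 6 higher and 0 lower (median 1.19). With the floor at the 25th percentile the median of the RA pair was 0.003, with 3 members higher and 2 lower. Meox1, a somite homeobox gene, had 2453 and 469 (2.39), against 289 and 244 in the control pair, and Tcf15, a somite bHLH gene, 1776 and 370 (2.26). Uncx, Nkx3-2, Tbx6, Mesp2 and Pax9 were at the floor on both RA arrays. Muscle precursor markers had 3 higher and 2 lower of 7 measured (median 0.61), and summed to 4369 and 1216. Lbx1, Pax3 (2.33) and Met (1.83) were higher, and Chrna1 (-1.82) and Pax7 (-1.26, a bound) were lower. With the floor at the 75th percentile Pax3 shrank to 0.12. Myod1, Myog, Msc and Mymk were at the floor on both. Endothelial markers had 3 of 14 higher and 0 lower (median 0.60, Tek 1.76, Cldn5 1.42, Tie1 1.37), sums 7859 and 4884, and with the floor at the 75th percentile 0 were 2-fold. Surface ectoderm markers had 3 of 16 lower and 1 higher (median -0.53), sums 12417 and 18207. The lower ones were Cdh1 (-1.38), Perp (-1.12) and Wnt7a (-1.74), and the higher one was Krt15, with 162 and 2.39 (at least 1.25). Krt5 differed by 0.06, against -1.91 in the control pair. The control pair had 3 of 15 lower and 0 higher (median -0.81), sums 14533 and 25680. Macrophage markers had 2 of 10 lower (C1qb -1.63, Tyrobp -1.06), sums 1638 and 2958, of which C1qb gave 408 and 1264. C1qb was read from a probe set prone to cross-hybridisation, and its other probe sets differed by -0.11 and -1.08. Tyrobp was at -0.94 with arrays divided by their median and at -0.92 after quantile normalization. Neural markers had 1 higher and 1 lower of 7 measured, with Sox10 and Foxd3 at the floor, sums 1536 and 2466. Mesothelium markers had 2 of 5 higher and 0 lower (Wt1 1.43, Krt19 1.25), sums 1518 and 675. The part of these cells in the gene differences above was not tested.

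The RA pair shared part of its genes with the control pair. Of the 510 genes higher proximally in the RA pair 90 were also among the 155 of the control pair (17.6% of one list and 58.1% of the other), and of the 710 lower genes 83 were among its 159 (11.7% and 52.2%). Of the control pair's 155 higher genes, 152 were measured in the RA pair, where their median was 1.22 and 130 kept the sign. Of the 159 lower genes 146 were measured, with a median of -1.13, and 129 kept the sign. The RA pair's own 510 higher genes had a median of 0.31 in the control pair, over 492 measured there, and the 710 lower ones -0.04 over 687. With the dKO pair 35 higher genes (6.86% of 510 and 59.3% of 59) and 35 lower genes (4.93% of 710 and 41.7% of 84) were shared.

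The difference between parts was more positive in the RA pair than in the control pair most of all, among genes whose brightest of these 4 arrays reached 4 times its floor, for Pou4f1 (by 2.90), Drp2, Hoxa4 (by 2.35), Tagln, Syk, Spon1, Meox1 (by 2.15), Col2a1 (by 2.02), Unc5c and Krt5. Diras2 differed by 3.45 but did not reach that brightness, and the values of Hoxa4, Syk and Sp8 rest on bounds. The difference was more negative most of all for Smad7, Isg20l2, Mgat2, Hemgn, Cpox, Zbtb16, Zfp2, Psd2, Svopl and Sp8, by 5.29 for Smad7 and 2.74 for Sp8. Other probe sets differed in the RA pair by -0.50 for Drp2, 0.69 for Syk, at least 0.28 for Spon1 and 2.42 for Unc5c. The chosen ones differed by 0.89, at least 2.02, 1.34 and 1.95. Mgat2 had -0.62 and Zfp2 -0.38 on another probe set, against -2.89 and -2.34 on the chosen one. Tagln encodes a smooth muscle actin binding protein and Hemgn a nuclear protein of erythroid cells, and Hemgn had 102 and 539 in the RA pair, against 543 and 347 in the control pair. Erythroid markers as a list had 0 higher and 1 lower of 10 measured (median -0.40).

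**Figure D5:**
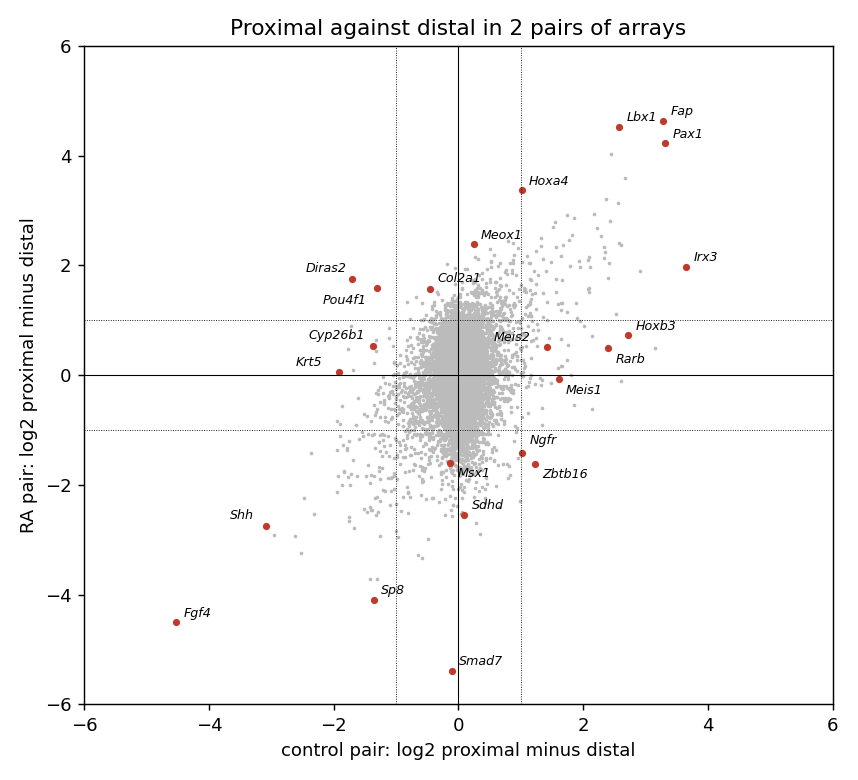
Log2 difference, proximal over distal, in the RA pair (vertical axis) against the control pair (horizontal axis), for genes measured in both. Fgf4 and Shh lie near the diagonal, Meis2, Meis1 and Rarb lie nearer 0 in the RA pair, and Pou4f1, Diras2, Zbtb16 and Ngfr lie beyond 2-fold with opposite signs.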

How the data were processed

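The values are signal intensity on a linear scale from the authors' MAS5 processing, per the submitters' processing notes, deposited as 1 column per array; those notes name no MAS5 version. No column was left out (0 unused). Of 45101 probe sets 64 controls were dropped, 34958 had 1 listed gene symbol, 932 several and 9211 none, and 34754 matched the RefSeq gene table. Each of 18193 genes was read, after flooring signals at the array median, from its probe set of highest mean log2 over all arrays. Counts use 2-fold or more; there is no test, and the number of arrays limits the precision. Named genes were the 15 highest and 15 lowest genes whose brighter array reached 4 times its floor, list members that were 2-fold, all members of the patterning, RA response and Hox lists, the 10 genes with the largest difference from the control pair each way, and genes opposite in both pairs. The pair, its 32 gene lists and these rules were chosen with earlier results of these data known. The computation was tested on simulated data. Python 3.11.15, numpy 2.4.6, pandas 2.3.3, statsmodels 0.14.6 (loess) and matplotlib 3.10.9 were used.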

Additional observations from a re-analysis of the deposited data

Results flagged for a closer look

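Among named genes, 4 were 2-fold in opposite directions in the RA pair and the control pair, and the difference between the pairs was not tested. Diras2, a small GTPase gene, had 230 proximally and 54.0 distally in the RA pair (log2 at least 1.75), against 56.2 and 208 in the control pair (-1.70, a bound). Pou4f1, a POU homeobox gene of sensory neurons, had 309 and 103 (1.59), against 129 and 318 (-1.31). Its other probe set differed by 0.19 in the control pair, so the control direction of Pou4f1 depends on the probe set. Zbtb16, a zinc finger gene of the proximal limb skeleton, had 384 and 1177 (-1.62), against 1468 and 626 (1.23), and its other probe set differed by -0.74 in the RA pair. Ngfr, the low affinity neurotrophin receptor gene, had 600 and 1613 (-1.43), against 337 and 166 (1.02), and its other probe set differed by 0.21 in the RA pair.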

How the results depend on the processing

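The counts of genes 2-fold higher (510) and lower (710) proximally moved by over 1.5 times with the floor alone: 1243 and 1110 with it at the 25th percentile, where 15616 genes were measured, and 157 and 274 at the 75th, where 7433 were. Fewer genes are tested at a higher floor. Under the other alternatives they ranged from 416 to 746 and from 548 to 753. The share of 2-fold genes that was higher, 41.8%, was 57.7% with arrays divided by their median, 52.2% after quantile normalization and 52.8% with the lower floor. Of the 124 named genes that were 2-fold, 0 changed sign under any alternative. Most alternatives rescale the chosen probe set or take a median that includes it, so they had little room to reverse a sign. Single other probe sets did have the opposite sign in the RA pair, as for Hoxa5 (-0.48), Hand2 (0.11) and Ngfr (0.21). Of the 124 genes, 119 stayed 2-fold under each array scaling taken alone, but not the same 119. Dusp6 fell under 2-fold only with arrays divided by their median (-0.98), and Fgf8 only after quantile normalization (-0.97). As the median over probe sets 115 stayed 2-fold, and at the higher floor 52 of 86 with a value. Smad7 was -0.44 on the probe set brightest in the pair. No paired analysis was possible because each group has 1 array and no result comes from a test.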
